A study of Mus musculus with 5 samples.

Results

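The genes described here are 10 components of Wnt signalling: the secreted inhibitors Sfrp1, Sfrp2, Sfrp4, Wif1, Dkk2 and Notum, the feedback targets Axin2 and Lef1, the receptor gene Fzd1, and Ctnnb1, which encodes beta-catenin. They were chosen by name, and all probes listed under those names or an older name of the same mouse gene were taken. All 10 had a probe among the 29527 gene names on the array, with 18 probes in all. The array lists SFRP1, SFRP2, SFRP4, WIF1, DKK2, AXIN2, LEF1, FZD1 and CTNNB1 under these names, and 5 of the probes stood under older names, among them all those of Notum. Of the 18 probes, 14 were detected on at least 2 of the 5 arrays, and these covered 8 genes. Sfrp4 and Dkk2 had 1 probe each, below detection on every array.

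The mice were 15 days old, of a C57BL/6J;129S5/Brd mixed hybrid strain, and RNA was taken from the uterus. There were 3 control pools (7, 9 and 11), labelled wild type, and 2 Dicer cKO pools (10 and 12), in which Dicer, the nuclease that releases mature microRNAs, was removed by Cre driven from the progesterone receptor gene. Such a driver acts in cells that express that receptor and passes to their descendants, and where recombination took place in these uteri was not measured. Each pool was read on 1 Illumina bead array, and values per pool are given in the order 7, 9, 11 for controls and 10, 12 for Dicer cKO. The sources used here do not say how many uteri made a pool or whether control mice carried Cre or floxed alleles. Effects of Cre at its locus and of Dicer loss therefore cannot be told apart, and the tests rest on the spread from pool to pool alone.

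Wnt ligands are secreted proteins that carry a lipid and bind Frizzled receptors together with the co-receptors Lrp5 and Lrp6. In the beta-catenin branch of the pathway, binding halts the complex that marks beta-catenin for destruction, so beta-catenin gathers in the nucleus and activates genes with factors of the Tcf and Lef family. Several of those genes, among them Axin2 and Notum, encode inhibitors of the pathway. They serve as readouts of the pathway because beta-catenin induces them. In the young uterus, Wnt signals pass between epithelium and stroma and are needed for gland formation.

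Dicer1, the deleted gene, had log2 signals of 9.15, 9.08 and 9.12 among the controls, against 8.62 and 8.75 in the Dicer cKO pools. It fell by 0.43 ± 0.09 (SE; limma adjusted p = 0.0224), and a dimmer probe did not pass, at -0.22 ± 0.13. That call was lost in 7 of 13 alternatives, among them the fits without any 1 control pool or without Dicer cKO pool 10 (limma adjusted p from 0.0574 to 0.180). The position of the probes in the gene relative to the deletion was not known. Between 47.0% and 49.5% of the 45281 probes were detected on an array. The squared difference between arrays, over its bead variance, had a median of 1.45 to 2.003 within groups, against 0.455 if bead error were the whole difference. Bead error leaves out labelling and hybridization, so this does not tell separate samples from repeat arrays of 1 sample. Dicer cKO pool 12 lay nearer the controls than pool 10, with a median absolute log2 difference from control pools of 0.148 to 0.171, against 0.180 to 0.210 for pool 10. Of 11 uterine identity genes measured, none rose and 2 fell. Pgr, which fell by 0.77 ± 0.14, is the gene that drives Cre, so effects of Cre at this locus and of Dicer loss cannot be told apart. Foxa2, a gland factor gene, fell to below detection on both Dicer cKO arrays, at least 1.12-fold lower. Neither was called when Dicer cKO pool 10 was left out (limma adjusted p = 0.113 for Pgr). Hoxa10, Hoxa11, Hoxd10, Msx1 and Esr1 were detected and not called, and Wnt7a, a ligand gene of the epithelium, differed by 0.89 ± 0.23 with both Dicer cKO pools above the controls but did not pass (limma adjusted p = 0.0501). The count of rises depended on the processing. With an offset of 50 in the background correction or with median scaling, 1 of the 11 uterine identity genes rose and 2 fell. Without control pool 11, 1 rose and 3 fell.

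A pair of promoter windows is shown first, because Axin2 and Sp5, a transcription factor gene of the same target class, both rose and are known to respond to beta-catenin. The windows are RefSeq sequence of build GRCm38.p6, 250 bases that end at an annotated transcription start, 5′ to 3′ on the plus strand. Capitals mark a core word read by Tcf and Lef proteins, searched on both strands with overlaps allowed. The 4 words searched were CTTTG followed by 2 letters, each of them A or T.
Axin2 chr11:108920099-108920348: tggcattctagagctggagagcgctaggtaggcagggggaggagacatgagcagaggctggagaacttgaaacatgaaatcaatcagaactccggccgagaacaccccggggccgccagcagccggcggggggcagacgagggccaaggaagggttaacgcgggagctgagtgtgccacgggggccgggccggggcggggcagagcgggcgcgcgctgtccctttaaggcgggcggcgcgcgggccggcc
Sp5 chr2:70474673-70474922: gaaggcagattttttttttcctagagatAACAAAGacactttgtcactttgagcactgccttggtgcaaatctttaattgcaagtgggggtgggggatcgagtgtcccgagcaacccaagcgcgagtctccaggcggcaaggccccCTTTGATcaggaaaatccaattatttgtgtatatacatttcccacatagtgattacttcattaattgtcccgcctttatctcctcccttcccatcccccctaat

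The Axin2 window held none of the 4 words, and the Sp5 window held 2. One Sp5 word lay on each strand, starting at -222 and -104 from the transcription start. Windows of 300 bases (250 before and 50 after a start) were available for 7 of the 10 genes, and not for Notum, Sfrp1 or Sfrp4. Of the 11 windows of these 7 genes, 1 held a word, a window at a start inside Lef1 with the word at -147. Of the 13 further pathway genes called, described below, 6 had a window. Of their 7 windows, 2 held a word, those in Sp5 and Tnfrsf19, while those of Cd44, Fzd10, Wnt4 and Wnt6 held none. Over all 32851 RefSeq windows of that length, 16.9% held at least 1 of the words. A match is a run of letters and not a measured binding site, and a window with none says nothing of sites elsewhere.

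Notum showed the largest difference of the 8 measured genes. Notum encodes a secreted carboxylesterase that removes the lipid from Wnt ligands and so inactivates them. Its brightest probe, listed under the clone name 5730593N15RIK, had intensities of 137.0, 134.5 and 119.9 among the controls and of 264.8 and 239.8 in the Dicer cKO pools. After normalization it read 6.57, 6.64 and 6.61 log2 units in the controls and 7.99 and 7.69 in the Dicer cKO pools. The control pools lay within a narrow band, and both Dicer cKO pools stood far above it. The difference was 1.23 ± 0.13 (SE; limma adjusted p = 0.00060), a 2.34-fold rise with a 95% interval of 1.91-fold to 2.86-fold. Only 0.979% of all genes had a larger absolute difference.

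The other 2 probes of Notum were dimmer and gave the same direction. Both were below detection on all 3 control arrays, with detection p from 0.0600 to 0.0787, and detected on both Dicer cKO arrays. Against the detection floor of the control arrays, the first was at least 2.66-fold higher and the second at least 2.26-fold higher in the Dicer cKO pools. Fitted as they stood, they differed by 1.47 ± 0.16 and 1.23 ± 0.14. They passed the detection filter only through the Dicer cKO arrays, so their number adds no support of its own. The rise of the brightest probe, detected on every array, does not rest on them.

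Axin2 was the other gene that rose. Axin2 encodes a scaffold of the beta-catenin destruction complex. Its probe had intensities of 962.4, 922.2 and 827.3 among the controls and of 1116.6 and 1258.7 in the Dicer cKO pools. The normalized values were 9.70, 9.79 and 9.75 log2 units in the controls and 10.18 and 10.25 in the Dicer cKO pools. The groups did not overlap, and the pools of each group lay within 0.09 log2 units of each other. The difference was 0.46 ± 0.08 (SE; limma adjusted p = 0.0081), or 1.38-fold with a 95% interval of 1.22-fold to 1.56-fold. Without Dicer cKO pool 10 the difference was 0.50 and the call was lost (limma adjusted p = 0.0519), in a fit where the lone Dicer cKO pool is assumed to vary like the controls.

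Thus 2 of the 8 measured genes were called, both higher. Of all 15733 genes, 6.74% were called, 2.78% higher and 3.96% lower. Counted by probe, 4 of the 14 kept probes were called, against 5.87% of all kept probes, but 2 of the 4 are the Notum probes that had to differ to be kept. The groups did not overlap for Notum and Axin2, with Dicer cKO above, as for 19.9% of all genes, nor for Wif1, with Dicer cKO below, as for 17.6%. In either direction that makes 3 of the 8, against 37.6% of all genes. The genes of the report were chosen with earlier results of these data known, so these shares do not test whether Wnt genes differ more often than others. Both called genes encode inhibitors known as targets of beta-catenin. The 6 genes that did not pass include Lef1, which is also such a target and differed by -0.064 ± 0.19. They also include the secreted proteins that bind Wnt ligands, the receptor and beta-catenin. Whether beta-catenin activity had a part in the differences of Notum and Axin2 was not tested.

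**Figure D1:**
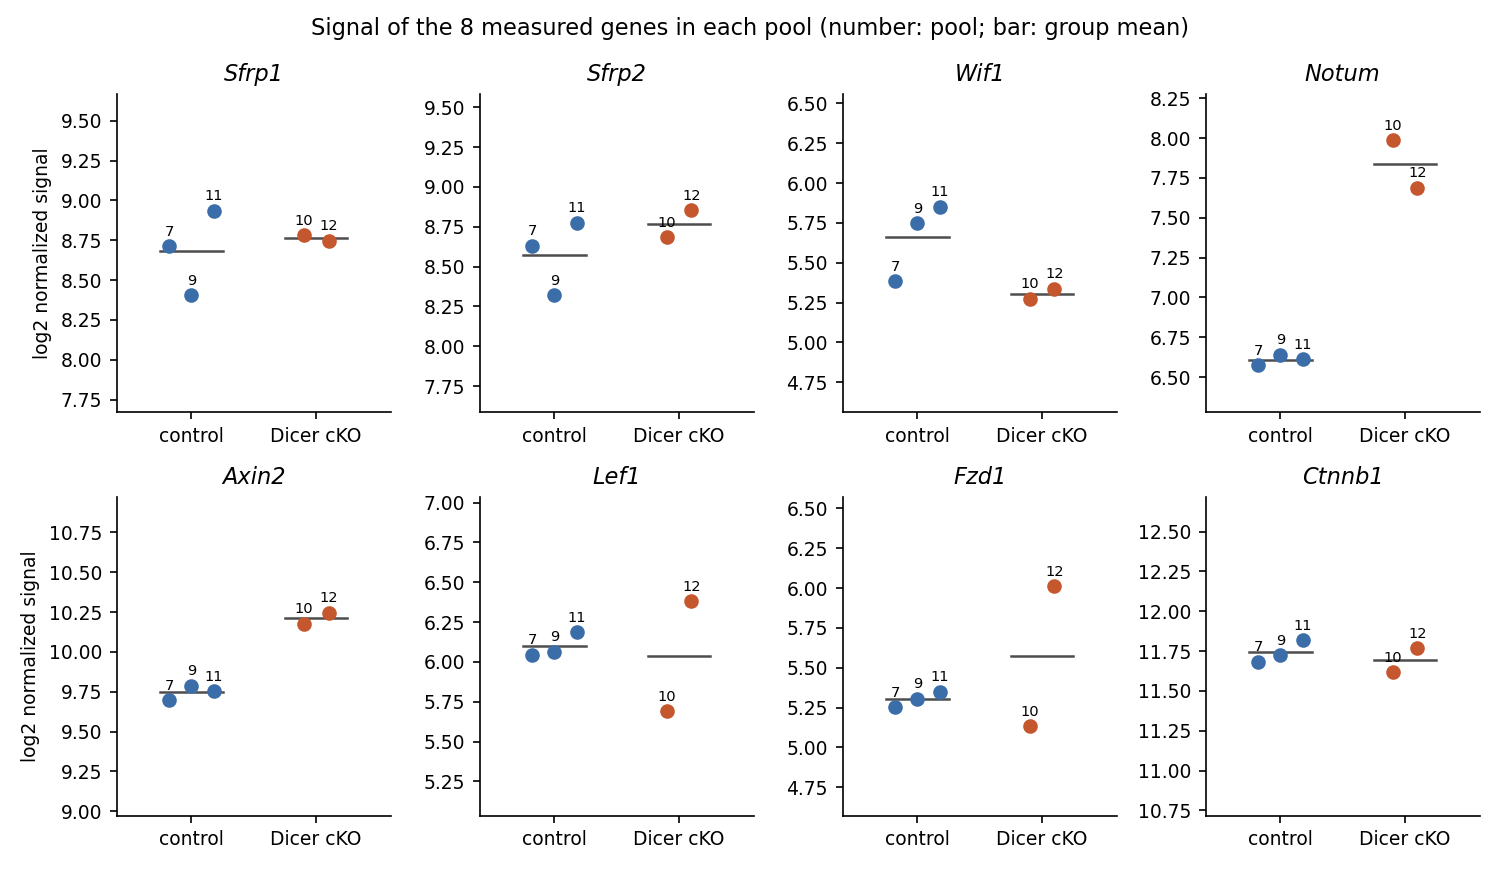
Normalized signal (log2) of the 8 measured genes, each from the probe that stands for it; points are single pools, numbered, bars are group means, and every panel spans the same 2-unit range. Notum and Axin2 sit higher in both Dicer cKO pools (10 and 12) than in the 3 control pools, while Lef1 and Fzd1 split pool 10 from pool 12.

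Among the antagonists that bind Wnt ligands directly, none was called by limma. Secreted Frizzled-related proteins carry a domain like that of the Frizzled receptors, which captures ligands outside the cell. Sfrp2 read 8.63, 8.32 and 8.77 log2 units among the controls, against 8.68 and 8.85 in the Dicer cKO pools. The Dicer cKO pools fell inside or just above the control range. The difference was 0.19 ± 0.14 (SE; limma adjusted p = 0.480), with a 95% interval of 0.925-fold to 1.41-fold.

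Sfrp1 was measured by a pair of probes that disagreed. The brighter one, listed under the clone name 2210415K03RIK and taken for the gene, read 8.71, 8.41 and 8.94 log2 units among the controls, against 8.78 and 8.75 in the Dicer cKO pools. Its control pools spanned the Dicer cKO pools, and the difference was 0.081 ± 0.14 (SE; limma adjusted p = 0.811). The dimmer one, listed as SFRP1, had intensities of 177.4, 171.4 and 175.3 in the controls and of 133.8 and 134.6 in the Dicer cKO pools. On this probe both Dicer cKO pools lay below all controls, as 36.7% of all kept probes had groups that did not overlap in one direction or the other. It differed by -0.39 ± 0.13 and was not called over all kept probes (limma adjusted p = 0.125). With the mean of both probes Sfrp1 differed by -0.16, so the sign for this gene depends on the probe. The position of either probe in the transcript was not known.

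Wif1, whose secreted product binds Wnt ligands through a domain of its own, was dim but detected on every array. It read 5.38, 5.75 and 5.85 log2 units among the controls, against 5.27 and 5.34 in the Dicer cKO pools. Both Dicer cKO pools lay below the controls, with control pool 7 close above them. The difference was -0.36 ± 0.16 (SE; limma adjusted p = 0.252), with a 95% interval of 0.607-fold to 1.01-fold. That interval holds both a clear fall and no change.

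Sfrp4 and Dkk2 could not be compared. Dkk2 encodes a secreted ligand of Lrp5 and Lrp6. Its probe had intensities from 34.7 to 38.1 in the controls and of 33.2 and 41.7 in the Dicer cKO pools, with detection p of at least 0.688 on every array. The Sfrp4 probe had intensities from 46.3 to 52.3 in the controls and of 42.4 and 52.8 in the Dicer cKO pools, with detection p from 0.200 to 0.608. These are signals not distinguished from background, and no fold is given.

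**Figure D2:**
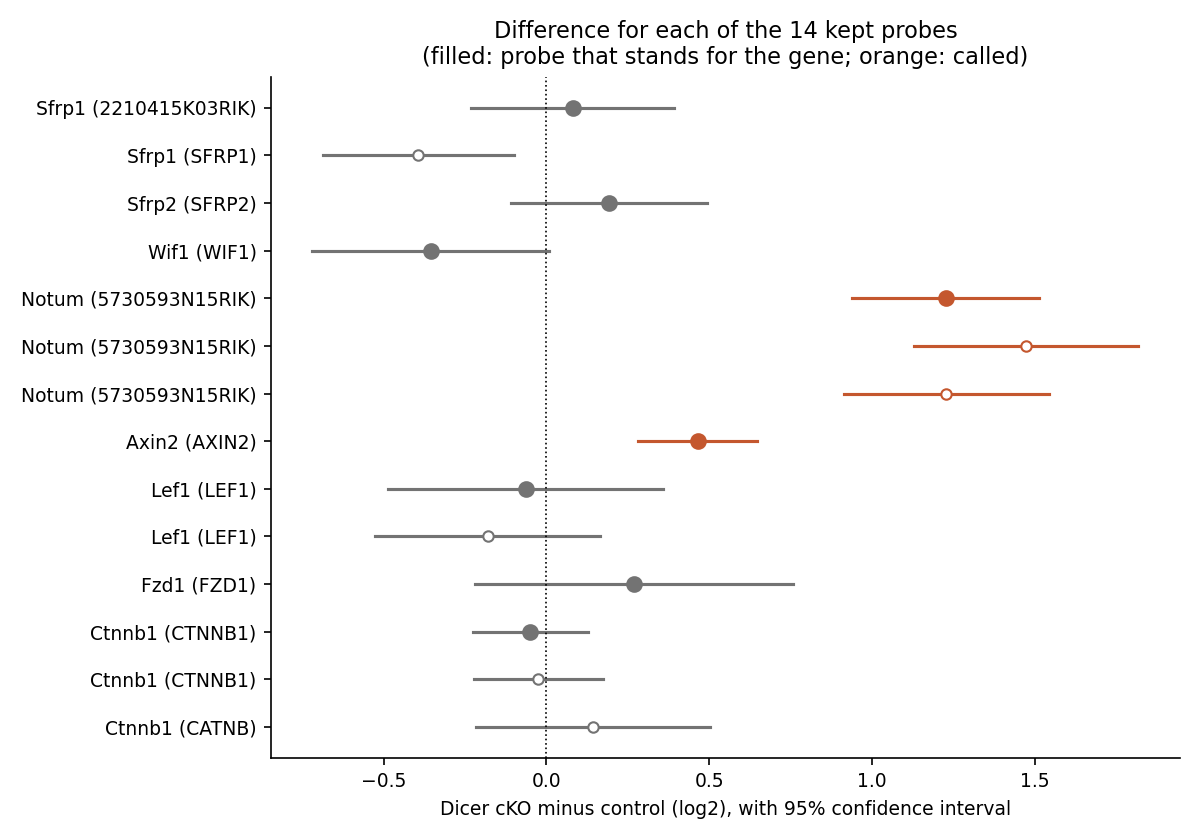
Difference between Dicer cKO and control pools (log2, x axis) with its 95% confidence interval for each of the 14 kept probes, one per row, labelled by gene and by the name on the array. The brightest Notum probe and the Axin2 probe lie right of 0 with their intervals, and the pair of Sfrp1 probes lie on opposite sides of 0. The 2 dimmer Notum probes also lie right of 0, but they were kept only through the Dicer cKO arrays and add no support.

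Ctnnb1 did not differ beyond the spread of the pools, on any of its 3 probes. The brightest read 11.68, 11.72 and 11.82 log2 units among the controls, against 11.62 and 11.77 in the Dicer cKO pools, with the groups interleaved. The difference was -0.049 ± 0.08 (SE; limma adjusted p = 0.785), and the 95% interval ran from 0.857-fold to 1.09-fold. The second probe under that name differed by -0.025 ± 0.09, and a dimmer probe listed as CATNB by 0.14 ± 0.16. The arrays report the transcript, while beta-catenin activity is set largely by the stability of the protein, which was not measured.

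Lef1 and Fzd1 set the Dicer cKO pools apart from each other rather than from the controls. Lef1 encodes a nuclear partner of beta-catenin that is also one of its targets. It read 6.04, 6.06 and 6.19 log2 units among the controls, 5.69 in Dicer cKO pool 10 and 6.38 in pool 12. Pool 10 thus lay below every control and pool 12 above every control, and the difference of the means was -0.064 ± 0.19 (SE; limma adjusted p = 0.899). Without pool 10 the difference was 0.28, and without pool 12 it was -0.41, neither called by limma. A gap between the Dicer cKO pools as large as the 0.69 log2 units of Lef1 was exceeded by 1.17% of genes, bright and dim counted together. Its second kept probe also read lower in pool 10 than in pool 12, at 5.40 against 5.63, but both within or below the control range of 5.50 to 5.86. The remaining 2 probes of Lef1 were below detection on every array.

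Fzd1, one of the Frizzled receptors, showed the same split. It had intensities of 72.7, 71.8 and 67.9 among the controls, of 63.4 in Dicer cKO pool 10 and of 96.0 in pool 12. In normalized values the controls lay between 5.25 and 5.35 log2 units, with 5.13 in pool 10 and 6.01 in pool 12. The gap of 0.88 between the Dicer cKO pools was exceeded by 0.356% of genes. That share counts bright and dim genes together, while this probe was dim, with a detection p of 0.0281 in pool 10. The difference of the means was 0.27 ± 0.22 (SE; limma adjusted p = 0.553). It was 0.72 without pool 10 and -0.17 without pool 12, neither called by limma. On this probe and on the brightest probe of Lef1, pool 10 lay below and pool 12 above all controls.

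**Figure D3:**
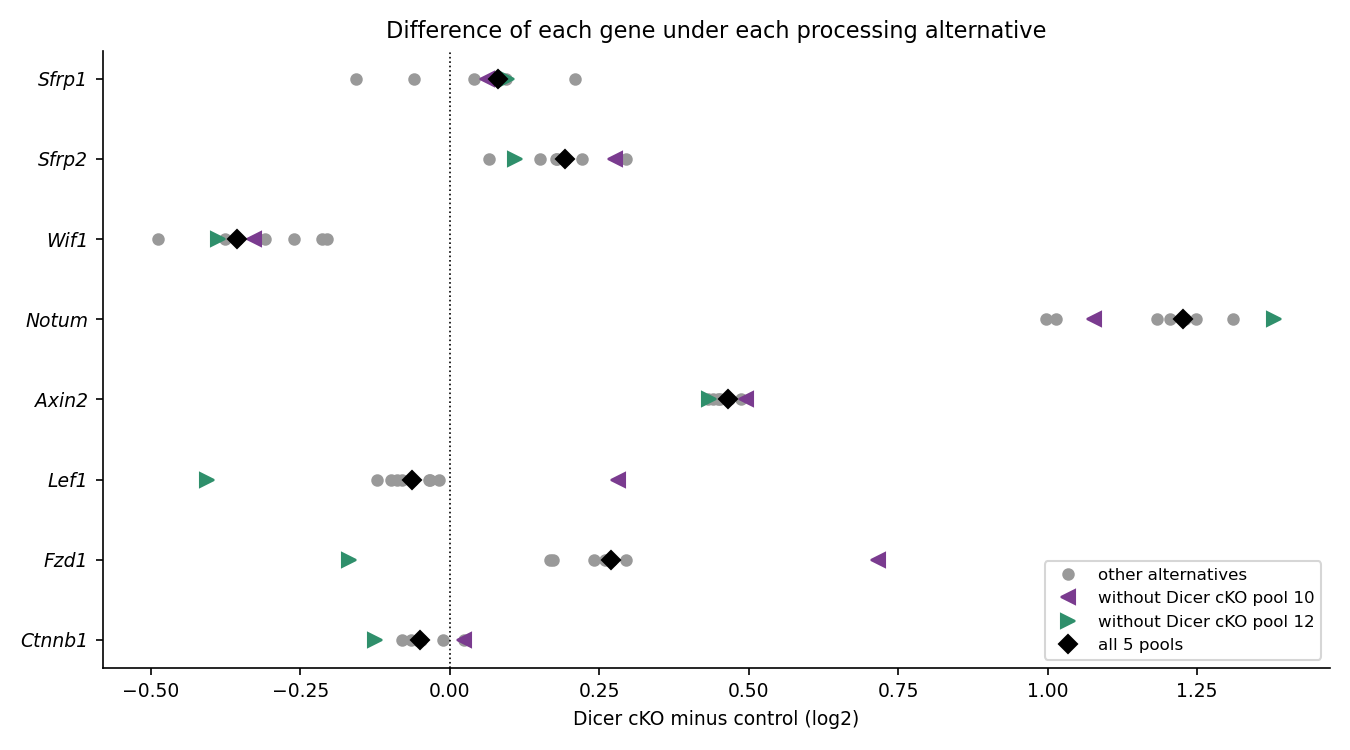
Difference between Dicer cKO and control pools (log2, x axis) for each of the 8 measured genes with all 5 pools (black diamonds) and under each processing alternative; triangles mark the fits without Dicer cKO pool 10 or 12. Lef1 moves from -0.41 to 0.28 and Fzd1 from -0.17 to 0.72 with the Dicer cKO pool left out, while Notum and Axin2 stay right of 0.

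A further 122 genes of the pathway were listed by role to place these values, and 87 of them were measured. Of these, 9 rose, 4 fell and 74 did not pass, which is 14.9% called against 6.74% of all genes. The 9 include Wnt10a, which passed the detection filter only with the Dicer cKO arrays. With detection required on all 5 arrays, 12 of 80 were called (15%), 8 higher and 4 lower, against 6.47% of all genes. The lists were chosen with earlier results of these data known. A larger share called than among all genes, here or in the fits below, may therefore come from that choice and does not show enrichment of the pathway. The median difference of the 87 genes was 0.020, beside 0.015 for all genes, and their median absolute difference was 0.21, beside 0.13. Without Dicer cKO pool 10, 7 of them (8.05%) were called, 4 higher and 3 lower, against 1.77% of all genes in the same fit. Without Dicer cKO pool 12, 15 (17.2%) were called, 7 higher and 8 lower, against 6.19% of all genes, so the balance of rises and falls depends on the pool.

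The other known targets of beta-catenin went both ways. Of 19 measured, 3 rose and 2 fell, with a median of 0.0045. Sp5 had 7.03, 6.86 and 6.88 log2 units among the controls, against 7.81 and 7.91 in the Dicer cKO pools, a rise of 0.94 ± 0.12 (SE; limma adjusted p = 0.0016). Both Dicer cKO pools were well above all controls, as for Notum and Axin2. Ccnd1, the cyclin D1 gene, rose by 0.54 ± 0.09, and its 2 further probes by 0.69 and 0.62. Tnfrsf19, a receptor gene of the tumour necrosis factor family and the last of the 5 called, which was named after its values were seen, rose by 0.38 ± 0.09 (SE; limma adjusted p = 0.0385). Its call was lost in 8 of 13 alternatives, among them the mean of its probes (0.26, limma adjusted p = 0.224).

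Lgr5, a receptor for R-spondins and a marker of Wnt-responsive epithelial cells, went the opposite way. It read between 8.47 and 8.54 log2 units in the controls and 7.53 and 7.59 in the Dicer cKO pools, a fall of 0.95 ± 0.10 (SE; limma adjusted p = 0.00059). The gap between groups was many times the spread within either. Cd44, a cell surface receptor gene, fell by 0.48 ± 0.11 on its brightest probe, while 3 dimmer probes differed by -0.30, 0.019 and 0.36 and were not called. Its call was lost in 7 of 13 alternatives: without Dicer cKO pool 10 or any 1 of the 3 control pools, with median scaling, without the intensity trend and with the mean of its probes, where it differed by -0.10 (limma adjusted p from 0.0518 to 0.670). Myc, a classical target of the pathway, differed by -0.26 ± 0.11 and did not pass.

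None of 11 other antagonists and feedback inhibitors was called by limma, with 2 higher and 1 lower at an unadjusted p under 0.05, a level that 20.8% of all genes passed. Dkk3, a Dickkopf relative, differed by 0.28 ± 0.09 (limma adjusted p = 0.103), and its second probe by 0.10. Shisa2, which holds back the maturation of Frizzled receptors, differed by -0.84 ± 0.31 with controls spread from 5.93 to 7.24 log2 units, and was called only without control pool 7 (-1.21, limma adjusted p = 0.0049). Nkd1, a cytoplasmic feedback inhibitor, differed by 0.24 ± 0.10 and did not pass.

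At the cell surface, 1 of 15 other receptors and co-receptors rose and 1, Lgr5, fell. Fzd10 read 8.12, 8.43 and 8.64 log2 units among the controls, against 9.33 and 9.24 in the Dicer cKO pools. Both Dicer cKO pools lay above all controls, and the rise was 0.89 ± 0.14 (SE; limma adjusted p = 0.0052). All 3 of its kept probes were called, the others at 0.93 and 0.998. Without Dicer cKO pool 10 the call was lost (limma adjusted p = 0.0791). The co-receptor genes Lrp5 and Lrp6 differed by 0.037 ± 0.14 and 0.053 ± 0.14.

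Among 14 genes for ligands, their export and R-spondins, 4 rose and 1 fell, with a median of -0.035. The ligand genes Wnt4, Wnt10a, Wnt7b and, named after its values were seen, Wnt6 rose by 1.52 ± 0.19, 1.21 ± 0.16, 1.18 ± 0.24 and 0.65 ± 0.13. Wnt10a was detected on 1 of the 3 control arrays and on both Dicer cKO arrays. Its control arrays alone would not have passed the detection filter, so its call adds no support of its own. The Wnt10a difference rests on dim signals, and with an offset of 50 in the background correction it was 0.68. With detection required on all 5 arrays, 12 genes of this list were measured, of which 3 rose and 1 fell. Porcn, whose product attaches the lipid that Notum removes, read 9.78, 9.52 and 9.49 log2 units among the controls, against 8.66 and 9.09 in the Dicer cKO pools. Both Dicer cKO pools lay below all controls, and it fell by 0.72 ± 0.14 (SE; limma adjusted p = 0.0139). A second Porcn probe fell by 1.02 ± 0.15. Without Dicer cKO pool 10 the calls of Porcn, Wnt7b and Wnt6 were lost (limma adjusted p = 0.145, 0.213 and 0.200), and that of Wnt6 also without control pool 9 (0.0517) and with median scaling (0.0582).

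Genes for the turnover and nuclear partners of beta-catenin were not called by limma in any of 23 cases, with 2 higher and 2 lower at an unadjusted p under 0.05. Tle1, a corepressor that competes with beta-catenin for Tcf and Lef proteins, differed by -0.58 ± 0.15 (limma adjusted p = 0.0521) and depended on the pool. It was called only without Dicer cKO pool 12 (-0.87, limma adjusted p = 0.0066) and was -0.29 without pool 10 (limma adjusted p = 0.366), and -0.38 with the mean of its probes. Csnk1d, a casein kinase gene, differed by 0.30 ± 0.09 on its brightest probe (limma adjusted p = 0.0917), by -0.037 to 0.16 on 4 others and by 0.12 with the mean of all. Axin1, the constitutive relative of Axin2, differed by -0.025 ± 0.10, Apc by -0.051 ± 0.17 and Gsk3b by 0.073 ± 0.10. Within the destruction complex, Axin2 was the one measured gene that passed the test.

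Beta-catenin also joins cadherins to the cytoskeleton. Of 9 cadherins and other catenins measured, Cdh3 rose by 0.56 ± 0.14 and Cdh16, a cadherin of epithelia, fell by 0.83 ± 0.10. The call of Cdh3 was lost in 7 of 13 alternatives: leaving out control pool 7 or 9 or either Dicer cKO pool, with median scaling, without the detection filter and without the intensity trend (limma adjusted p from 0.0599 to 0.271). Cdh1, the epithelial cadherin gene, differed by -0.27 ± 0.11 and Ctnna1, the alpha-catenin gene, by -0.069 ± 0.08, and neither passed.

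**Figure D4:**
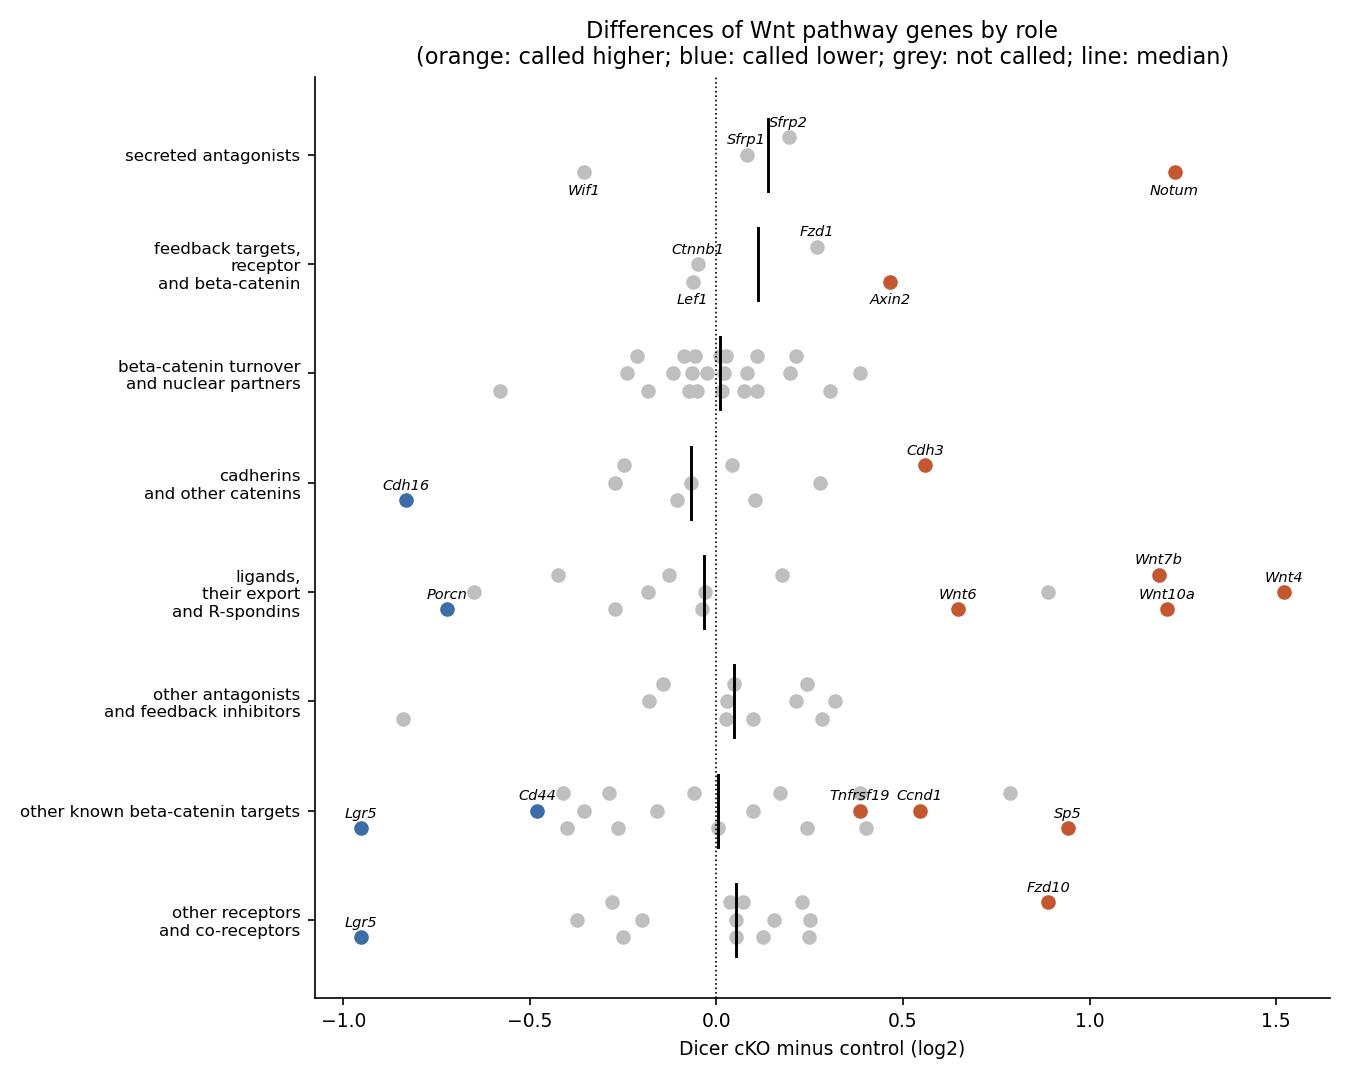
Difference between Dicer cKO and control pools (log2, x axis) of each measured gene, by role, with the 8 measured genes of the report in the top pair of rows; orange and blue points were called higher and lower, grey points were not called, and the line is the median of the row. Called genes lie on both sides of 0 among targets, receptors, ligands and cadherins, and the medians lie near 0.

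The 2 genes whose pattern over the 5 arrays lay closest to that of Notum, each gene centred on its mean, were Spink2, a protease inhibitor gene, and a gene listed on the array as PUNC. Spink2 was below detection on all 3 control arrays, so its place and distance rest on values not above background and no distance is given. It was at least 1.73-fold higher in the Dicer cKO pools. PUNC had a root-mean-square difference from Notum of 0.0755 log2 units and rose by 1.31 ± 0.12. For Axin2 they were Aif1, a macrophage gene, and Nsl1, a kinetochore gene, with 0.0154 and 0.0170, and differences of 0.46 ± 0.12 and 0.45 ± 0.13, of which that of Nsl1 was not called.

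Markers of several cell types differed between the groups beside these results. In whole uteri, fewer cells of a type and less RNA per cell cannot be told apart. The sums below add the deposited intensities of the probe that stands for each gene, neither background-subtracted nor normalized. Bright probes, background and the brightness of an array therefore weigh in them, and no test was made on the sums. Of 14 stromal markers, 4 fell and none rose, with summed intensities of 45722.6 to 55225 in the controls and 37580.7 to 46245 in the Dicer cKO pools. Of 14 epithelial markers, 3 rose and 5 fell, with sums of 11903.7 to 17832.6 in the controls and 10448.6 and 11060.9 in the Dicer cKO pools, and the Epcam probe was below detection. Of 8 immune markers, 3 rose, namely Lyz2, Cd68 and C1qb, with sums of 2047 to 2255.8 against 2553.7 and 3368.6, while the probes of Ptprc and Itgam were below detection. Of 4 adipocyte markers measured, Adipoq and Cfd fell, with sums of 1999.4 to 4327.7 against 801.9 and 1725.2. Of 5 ovary and oviduct markers measured, Ovgp1 fell and the others did not pass, with sums of 538.6 to 854.1 against 460.4 and 500.4. None of 10 smooth muscle, 9 endothelial or 5 mesothelial markers was called by limma, with 0, 1 and 0 at an unadjusted p under 0.05. Without Dicer cKO pool 10, no adipocyte or ovary and oviduct marker was called, 2 stromal markers fell, and 1 epithelial marker rose and 3 fell, while 3 immune markers still rose. No adipocyte marker was called without the intensity trend or with a robust spread, and Ovgp1 was not called with the latter. The part of these shifts in the differences of Notum, Axin2 and the other Wnt genes was not tested.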

How the data were processed

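The authors deposited a mean bead intensity per probe for each array, on a linear scale and, judged from the values, neither background-subtracted nor normalized, with a detection score from 0 to 1. BeadStudio is named per the submitters' processing notes, with no version. The labels name a human array, while the file's names are mouse genes. Detection p was 1 minus the deposited score. A further table of the whole series was not used here, since its row names match no probe column. Log2 values were made with limma 3.58.1 (neqc, offset 16; R 4.3.3), and 22845 probes with detection p under 0.05 on at least 2 arrays were kept. The brightest probe stood for a gene, giving 15733 genes. Names were updated through RefSeq (GRCm38.p6). Dicer cKO minus control was tested with limma (lmFit, eBayes with trend, 2-sided). A gene is called where its p, adjusted after Benjamini-Hochberg for the whole table, is under 0.05; single probes were fitted over all kept probes. The fit was tested on simulated data.

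The number of arrays limits precision: 5 pools allow no exact permutation p below 0.1, so none is given. The offset compresses differences of dim genes. Members and lists were chosen with earlier results of these data known. Named were all members, up to 4 called genes per pathway list with the largest difference (or the 2 with the largest moderated t), the 2 nearest patterns of each called member, and marker lists by count. Other genes were named after their values were seen. Alternatives were other background corrections, scaling, filters, spread estimates, the mean of a gene's probes and leaving out each pool.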

Additional observations from a re-analysis of the deposited data

How the results depend on the processing

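No alternative turned the direction of Notum or Axin2. Notum was called in all 13 alternatives, with differences from 0.997 to 1.38, and Axin2 in 12, the exception being the fit without Dicer cKO pool 10. With detection required on all 5 arrays, 2 member probes were called in place of 4, since 2 Notum probes were then not tested. With 1 pool left out, the count of all genes called ran from 275 to 956, against 1061, with 275 without Dicer cKO pool 10, 606 without control pool 7 and 644 without control pool 9. The members called ran from 1 to 2, the member probes called from 1 to 4, with 1 without Dicer cKO pool 10 and 2 without pool 12, and the further pathway genes called from 7 to 15, against 13. In the fits without Dicer cKO pool 10 or without pool 12, 12 member probes were tested in place of 14. The 2 dimmer Notum probes were then detected on 1 array only, so they were not tested rather than tested and not called. Some differences that were not called changed sign. Ctnnb1 differed by 0.023 with the mean of its probes and by 0.024 without Dicer cKO pool 10, Sfrp1 by -0.16 with the mean of its probes and by -0.059 without control pool 9, Lef1 by 0.28 without Dicer cKO pool 10 and Fzd1 by -0.17 without Dicer cKO pool 12, none of them called. With 1 pool left out, Ctnnb1 ran from -0.13 to 0.024, Sfrp1 from -0.059 to 0.21, Lef1 from -0.41 to 0.28 and Fzd1 from -0.17 to 0.72. Other than through fewer samples or probes tested, the cause was not tested. The deposited value table was not run as an alternative, since its rows could not be matched to probes. No paired analysis was possible because the groups share no pool number. Signal over background limits Sfrp4 and Dkk2, which were not measured, and Wif1 and Fzd1, which were dim.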
